A study of Mus musculus with 366 samples.

Results

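Aortic expression of the interferon-stimulated genes was examined in the Ath-HMDP, a panel of F1 mice bred for the study of atherosclerosis. The list of 36 genes was taken by name. A gene was read from the probe set with the highest mean among the probe sets whose platform symbol is that gene, so that 32 of the 36 genes were measured among the 17097 genes with a single symbol on the array. Oas1a, Isg15, Ifi44 and Bst2 had no probe set under their symbol and carry no value here.

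The mice were female F1 offspring of C57BL/6J animals carrying the human ApoE-Leiden and CETP transgenes and of 1 inbred strain each, and they were 24 weeks old. Every strain ate chow for 8 weeks and then Western diet for 16 weeks, so the panel holds no untreated group, no mouse without the transgenes and no other age or sex. Each animal has 1 genome copy from C57BL/6J, and an allele of the other parent was measured only beside a C57BL/6J allele; the C57BL/6J group itself has both copies from that strain. The 366 arrays cover 101 strains, with 31 classical inbred strains and, among the recombinant inbred sets, 36 BXD, 21 AXB/BXA, 9 CXB and 4 BXH strains. A strain had between 1 and 8 arrays, with a median of 4.

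Type I interferons bind a cell surface receptor, and the kinases JAK1 and TYK2 then activate transcription factors, among them STAT2 and IRF9, that enter the nucleus. There they bind interferon-stimulated response elements in promoters and switch on a set of antiviral genes, among them Irf7, a transcription factor that raises interferon production further. In atherosclerotic arteries, interferon signalling is known in macrophages, endothelial cells and lymphocytes.

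The core of the response element was searched as GAAA, any 2 bases and GAAA again, on both strands of the RefSeq promoter windows, from 250 bases before to 50 bases after the transcription start. Of the 36 genes, 27 had a window, and 14 of them (51.9%) held the core, against 1079 of 27025 genes in the table (3.99%). With a C after the core, the counts were 12 members (44.4%) and 0.944% of all genes. The core of the gamma-activated site, TTCNNNGAA, was held by 6 members (22.2%) and 9.55% of all genes. Shown here are the 160 bases before the start, in the direction of transcription, for the 5 measured members that held the core wholly in that stretch and followed Irf7 most closely within strains, with each core in capitals (a pair of TTTC blocks is the core on the opposite strand). Build GRCm38.p6 applies to all of them. The stretches are chr19:34583369-34583528 (+) for Ifit3, chr5:120887614-120887773 (-) for Oas1g, chr19:34640729-34640888 (+) for Ifit1, chr7:104465194-104465353 (-) for Trim30a and chr8:61927927-61928086 (+) for Ddx60.
Ifit3: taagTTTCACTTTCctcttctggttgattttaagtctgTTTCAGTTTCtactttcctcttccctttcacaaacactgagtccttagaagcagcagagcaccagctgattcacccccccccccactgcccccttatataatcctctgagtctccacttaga
Oas1g: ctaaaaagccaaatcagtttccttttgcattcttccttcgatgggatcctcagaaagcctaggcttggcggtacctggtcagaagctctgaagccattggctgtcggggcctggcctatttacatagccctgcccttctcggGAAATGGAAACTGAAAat
Ifit1: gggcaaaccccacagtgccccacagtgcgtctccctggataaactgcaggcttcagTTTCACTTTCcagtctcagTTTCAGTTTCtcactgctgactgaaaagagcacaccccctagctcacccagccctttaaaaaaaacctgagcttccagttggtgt
Trim30a: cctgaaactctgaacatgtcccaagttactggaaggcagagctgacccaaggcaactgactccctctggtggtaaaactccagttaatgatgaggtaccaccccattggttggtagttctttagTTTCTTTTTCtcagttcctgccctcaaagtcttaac
Ddx60: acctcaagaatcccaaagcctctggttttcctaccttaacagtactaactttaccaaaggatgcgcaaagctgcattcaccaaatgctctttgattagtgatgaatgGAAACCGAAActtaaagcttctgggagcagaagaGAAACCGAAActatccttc
Ifit3, Ifit1 and Ddx60 each hold the core at 2 separate places, and the 2 cores of Oas1g overlap beside the start of the gene. A match describes the letters of the window and was not tested as a binding site.

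The deposited values are log2 intensities after RMA, between 1.63 and 13.7, and the medians of the arrays lay between 3.17 and 3.40. In order of deposition they lay between 3.17 and 3.31 up to C57BL/6J replicate 2 and between 3.27 and 3.40 afterwards. All arrays of A/J, BALB/cJ, DBA/2J, CXB7/ByJ, CXB8/HiAJ, AXB8/PgnJ and AXB15/PgnJ came before that point. All of AKR/J and the arrays of C57BL/6J and C3H/HeJ from replicate 3 on came after it. The part of this order in differences among or within strains was not tested. Of the 32 members, 28 had a mean above that of the median probe set (3.28), and Oas3, Mx1, Mx2 and Herc6 lay below it. Markers of smooth muscle (strain means of the list from 6.25 to 9.82) and endothelium (6.52 to 7.66) were present in every strain, as were those of adipocytes (10.4 to 11.5) and macrophages (5.59 to 6.81). Plasmacytoid dendritic cell markers, without Bst2 and Siglech, lay between 3.96 and 4.74. Striated muscle markers ran from 3.79 to 10.5 over strain means, with none called in the strain comparisons detailed below. Their median difference was -2.31 in DBA/2J and -2.4 in C3H/HeJ against C57BL/6J. Against the other strains it was -3.11 in AXB8/PgnJ, -2.5 in AKR/J, 1.14 in CXB7/ByJ, 1.9 in AXB15/PgnJ and 2.89 in CXB8/HiAJ. Elsewhere among these comparisons it lay between -0.224 and 0.535. Their part in the results was not tested. In whole tissue, fewer cells of a type and less RNA per cell cannot be told apart. A total of 9 arrays had hepatocyte markers more than 2 log2 units above the median array, and 2 arrays, AXB19/PgnJ replicate 1 and AXB13/PgnJ replicate 4, lay nearest to another strain over the 300 probe sets used for that check.

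The interferon-stimulated genes varied among the strains. All 32 passed limma's F test over 95 strains with at least 2 arrays (360 arrays, Benjamini-Hochberg adjusted p from 2.1e-22 for Usp18 to 0.032 for Oas3), beside 77% of all probe sets and 80.6% of all genes. The share of a gene's variance that lay among strains rather than among arrays of a strain, the intraclass correlation, had a median of 25.5% over the members and 20.8% over all genes, and 40.8% of all genes reached the members' median. For every member, more of the variance lay among mice of a strain than among strains. The strain means of a member spanned between 0.48 (Oas3) and 4.34 log2 units (Usp18), with a median span of 1.83.

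Usp18, the protease that removes the ubiquitin-like modifier ISG15 from proteins and damps signalling at the interferon receptor, had the largest share of variance among strains of the 32 (49.4%). Its strain means ran from 3.94 in AXB8/PgnJ over a median of 6.58 to 8.28 in CXB7/ByJ. Ifi27l2a, a small interferon-induced membrane protein, followed with 46.3% and strain means from 10.52 in AXB15/PgnJ to 12.37 in BXD51/RwwJ (median 11.72). These genes differed in spread: the SD among arrays of a strain was 0.693 for Usp18 and 0.316 for Ifi27l2a. Trim25, the ubiquitin ligase that activates the RNA sensor RIG-I, had 40.2% of its variance among strains and means from 7.08 in CXB8/HiAJ to 8.25 in AXB12/PgnJ (median 7.72). Ifih1, which encodes the RNA sensor MDA5, had 36.5%, with means from 4.76 in AXB8/PgnJ to 6.52 in AXB10/PgnJ. Stat2, one of the factors that act at the response element, had 38.9%, with means from 3.01 in BXD75/RwwJ to 4.83 in SM/J (median 3.74). Its other probe set, of similar mean (3.68 against 3.80), put only 9.33% among strains (limma F test adjusted p = 0.028). AXB8/PgnJ, with 2 arrays, was the lowest strain for both Usp18 and Ifih1, and Ifi27l2a, Trim25 and Stat2 each had a different lowest strain. The AXB/BXA and CXB sets supplied the lowest strain for Usp18, Ifi27l2a, Trim25 and Ifih1. Among the other members, AXB8/PgnJ was also lowest for Ifit1, Oas1g, Oasl2, Rsad2, Irf7, Ddx60 and Rtp4.

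**Figure D1:**
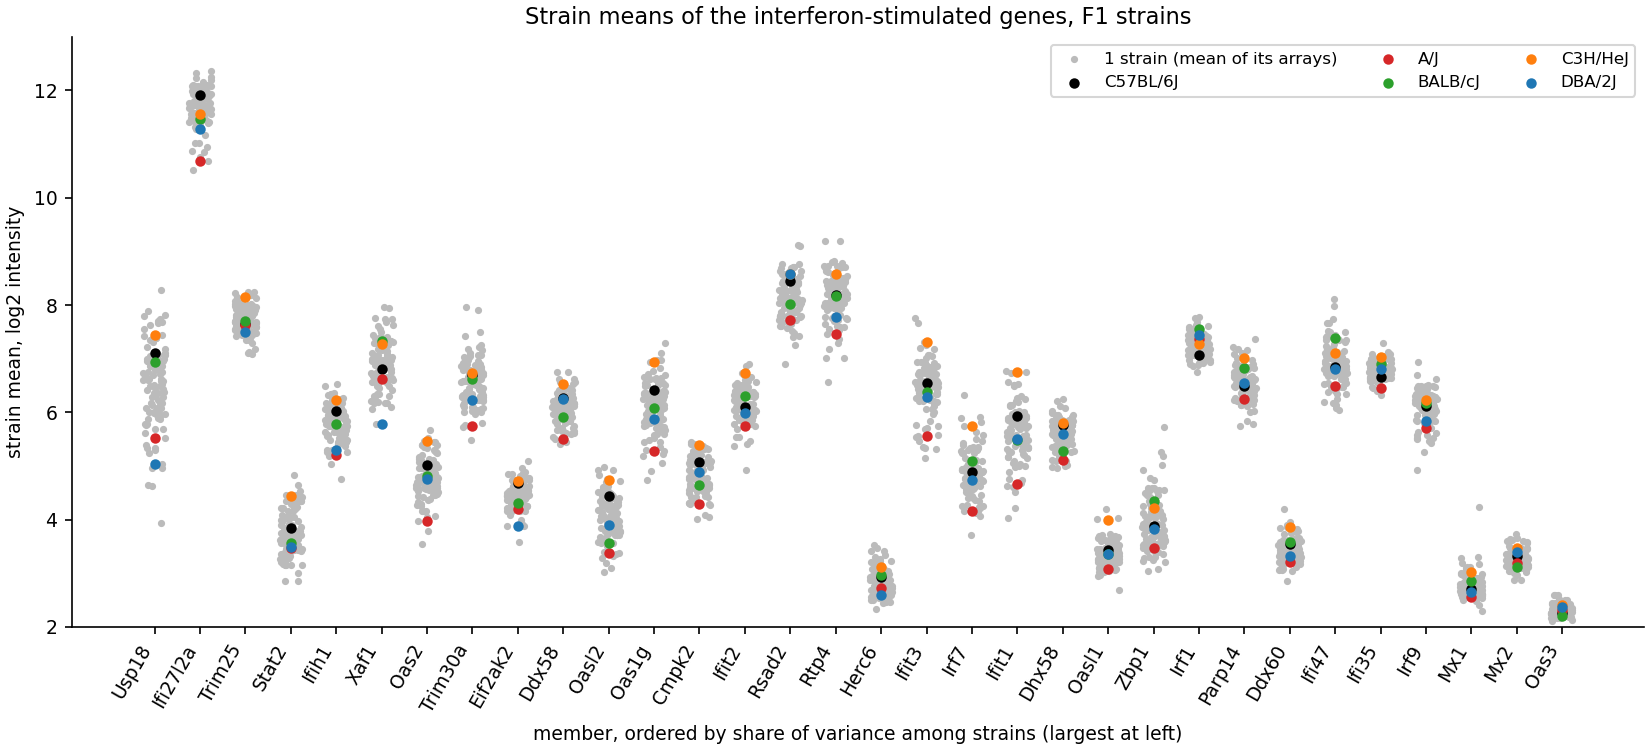
Each point is the mean log2 intensity of 1 of the 101 F1 strains (vertical axis) for 1 of the 32 measured members (horizontal axis, ordered by the share of variance among strains), and the 5 progenitors of the recombinant sets are coloured. Usp18 at the left spans 4.34 log2 units over the 95 strains with at least 2 arrays and Oas3 at the right 0.48, and levels of different genes are not comparable because each comes from its own probe set.

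Among the other members, the shares of variance followed no single role. The antiviral synthetases had 34% (Oas2), 29.9% (Oasl2), 29.3% (Oas1g), 22.3% (Oasl1) and 9.31% (Oas3). The Ifit genes, whose proteins bind viral RNA, had between 23.5% (Ifit1) and 28.7% (Ifit2). For the transcription factors the share was 24.2% for Irf7, 20.5% for Irf1 and 17% for Irf9. All lay below Stat2 on the probe set used here and above its other probe set (9.33%). Ddx58 (RIG-I) had 30.5% and Dhx58 (LGP2) 23.1%, and the kinase Eif2ak2 (PKR), which stops translation on double-stranded RNA, had 30.8%. Mx1 and Mx2, dynamin-like antiviral GTPases, had 13.7% and 11.9%; both were among the members dimmer than the median probe set. The Oas1 genes are close copies of each other, as are the Ifit3 and the Trim30 genes, so that a probe set of Oas1g, Ifit3 or Trim30a may also have read a copy.

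Xaf1, an interferon-induced gene of the cell death machinery, differed between its probe sets. The one used here put 35.6% of the variance among strains, with strain means from 5.78 in DBA/2J to 7.96 in BXA16/PgnJ. The other one put 98.3% there. On that second probe set 77 strains lay between 2.81 and 3.92 and 24 strains between 7.26 and 8.19, with no strain in the gap of 3.34 log2 units between them. The upper range held 17 BXD strains and 7 classical strains, with DBA/2J at 7.70, and no strain of the AXB/BXA, CXB or BXH sets, while C57BL/6J lay at 2.99. On the probe set used here the same 77 strains ran from 6.23 to 7.96 and the 24 strains from 5.78 to 6.97, so that the ranges overlapped and stood in the opposite order. The cause was not tested.

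The F1 of 4 progenitor strains were compared with the F1 of C57BL/6J (6 arrays), which all 4 comparisons share. DBA/2J (5 arrays) had 5 members lower and none higher, beside 2.29% of all probe sets lower and 1.4% higher. Usp18 was 5.03 ± 0.607 (SD, n = 5) in DBA/2J, with single arrays at 4.67, 4.25, 5.54, 5.71 and 5.0, and 7.10 ± 0.846 (SD, n = 6) in C57BL/6J, where the arrays ran from 5.65 over a median of 7.13 to 8.19. All but the highest DBA/2J array lay below the whole C57BL/6J range, and the difference was -2.07 log2 units (SE 0.417, limma adjusted p = 0.00019, exact permutation p = 0.0065). Eif2ak2 lay between 3.71 and 4.16 in DBA/2J and between 4.55 and 4.97 in C57BL/6J, without overlap; it was lower by -0.80 (SE 0.170, limma adjusted p = 0.00056), and the exact permutation p of 0.0022 is the smallest that these arrays allow. Ifi27l2a did not overlap either, at 10.78 to 11.51 against 11.54 to 12.22, with a difference of -0.63 (limma adjusted p = 0.036). Ifih1 ran from 5.08 to 5.54 in DBA/2J and from 5.10 to 6.51 in C57BL/6J, a difference of -0.72 (limma adjusted p = 0.034). The groups overlapped for Ifih1 through the lowest C57BL/6J array.

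Xaf1 was lower in DBA/2J by -1.02 (SE 0.300, limma adjusted p = 0.028, exact permutation p = 0.0087), at 5.57 to 5.93 against 5.82 to 7.28, but its other probe set was higher in DBA/2J by 4.70 (limma adjusted p = 1.1e-82). The direction of Xaf1 in DBA/2J thus depended on the probe set. The count of members called in DBA/2J fell from 5 to 2 without DBA/2J replicate 2, C57BL/6J replicate 1 or C57BL/6J replicate 5, and to 3 without DBA/2J replicate 3 or C57BL/6J replicates 3 or 6. Of the macrophage, T cell and B cell markers none was called in this comparison, and smooth muscle markers had a median difference of 1.33 with none called. Of 4 adipocyte markers 1 was higher (Lep 2.415). The striated muscle list had a median difference of -2.31, with none of its 5 markers called. The part of these markers in the result was not tested.

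A/J (3 arrays) also had 5 members lower and none higher, beside 3.61% of all probe sets lower and 1.33% higher. Ifi27l2a was at 11.41, 10.86 and 9.81 in A/J, all below the C57BL/6J arrays, with a difference of -1.22 (SE 0.222, limma adjusted p = 2.3e-05, exact permutation p = 0.012, the smallest possible). Usp18 was at 6.11, 6.40 and 4.07, a difference of -1.57 (SE 0.487, limma adjusted p = 0.035, exact permutation p = 0.048). The third array was the lowest of A/J for both genes. Oas2, which makes the messenger that activates RNase L, was at 3.81, 4.47 and 3.63 in A/J and at 4.04 to 5.55 in C57BL/6J, a difference of -1.05 (limma adjusted p = 0.024, exact permutation p = 0.036). Oasl2 differed by -1.05 (limma adjusted p = 0.045, exact permutation p = 0.024). Ifih1 differed by -0.81 (limma adjusted p = 0.038), and its exact permutation p of 0.071 did not pass. Without A/J replicate 3 no member was called, although 4 of 32 had an unadjusted limma p below 0.05, and without A/J replicate 1 the count was 3. It was 2 without C57BL/6J replicates 1 or 5, 3 without replicates 3, 4 or 6, and 9 without replicate 2. Of 8 MHC class I and peptide loading genes 3 were lower: H2-K1 (-1.20), H2-T23 (-0.93) and H2-D1 (-0.82). H2-K1 had 67.2% of its variance among strains. Macrophage markers moved with this comparison: 7 of 12 were lower in A/J (median difference -0.83), and the mean of the list lay between 5.57 and 5.62 in A/J and between 6.09 and 7.41 in C57BL/6J. Smooth muscle markers had a median difference of 1.47 with none called. The part of these markers in the result was not tested.

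C3H/HeJ (8 arrays) went the other way, with 2 members higher and none lower, beside 3.91% of all probe sets higher. Trim25 ran from 7.90 to 8.42 (median of the 8 arrays 8.13) in C3H/HeJ and from 6.88 to 8.00 in C57BL/6J, higher by 0.50 (SE 0.138, limma adjusted p = 0.0082, exact permutation p = 0.0020). Oasl1, a relative of the synthetases that represses translation of Irf7, ran from 3.35 to 4.53 against 3.25 to 3.73 and was higher by 0.55 (SE 0.176, limma adjusted p = 0.029, exact permutation p = 0.0067). Of the 32 members, 31 had a positive difference, with a median of 0.32 against -0.02 over all probe sets. Neither call held without C57BL/6J replicate 2, where 5 members had an unadjusted p below 0.05; the count was 1 without C3H/HeJ replicates 4, 5 or 6 or C57BL/6J replicate 3, 4 without C57BL/6J replicate 4 and 5 without C3H/HeJ replicate 1. That C57BL/6J array had a member mean of 5.10, below the 5.68 to 6.12 of the others. Of 8 MHC class I and peptide loading genes, 2 were lower in C3H/HeJ, H2-K1 (-0.615) and H2-D1 (-0.74), while no member was. Smooth muscle markers moved with this comparison, 4 of 5 being higher in C3H/HeJ (median difference 1.69). Of 7 endothelial markers 2 were higher, with all 7 differences positive (median 0.51), and of 12 macrophage markers 2 were lower (median -0.39). The part of these markers in the result was not tested. BALB/cJ (4 arrays) had no member called, beside 1.63% of probe sets higher and 4.67% lower; 5 of 32 members had an unadjusted limma p below 0.05, 2 members were called among probe sets above the median mean, 1 with array weights and 1 without C57BL/6J replicate 2.

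**Figure D2:**
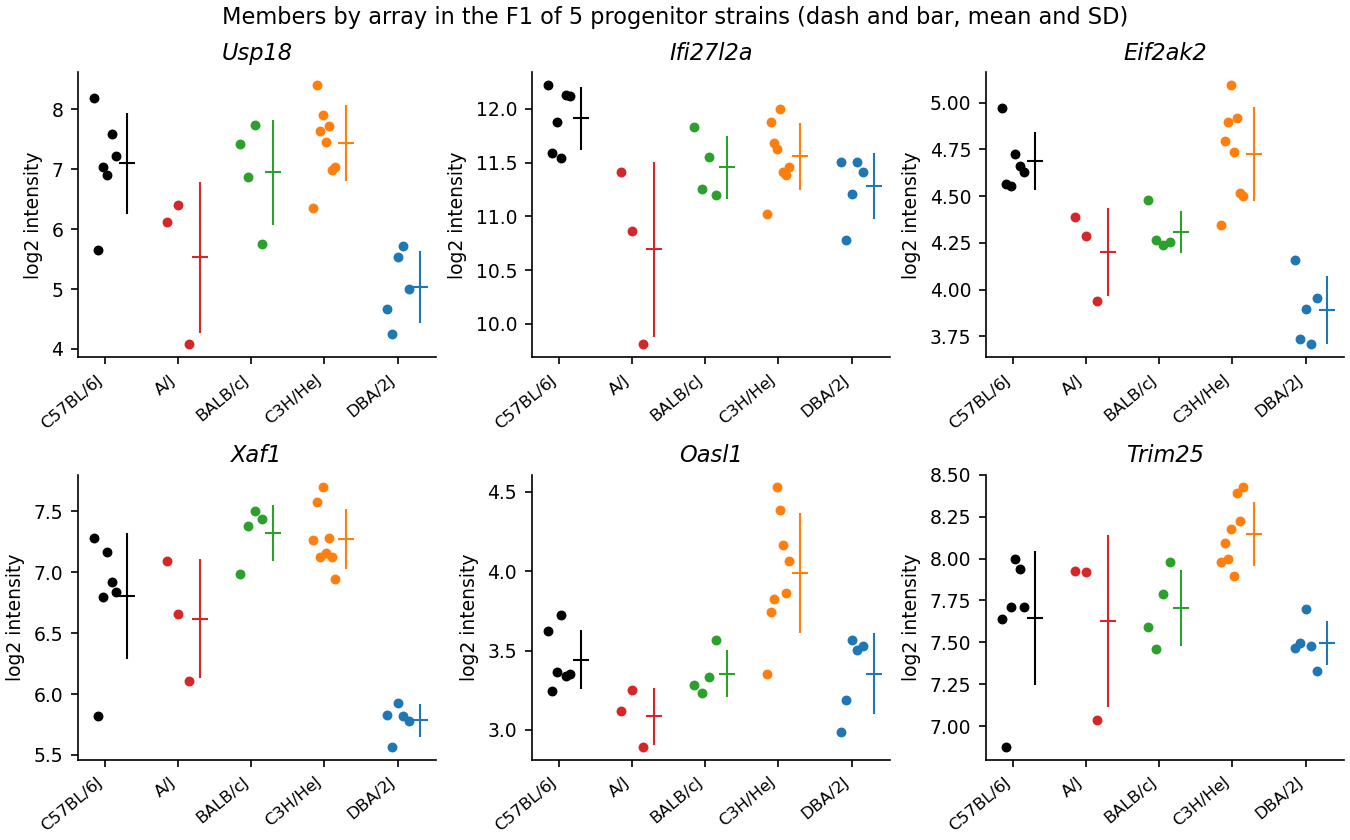
Log2 intensity (vertical axes) of 6 members on each array of the F1 of the 5 progenitor strains (horizontal axes); the dash and bar beside the points give the mean and SD. Eif2ak2 and Ifi27l2a in DBA/2J lie below every C57BL/6J array, and for Xaf1 and Trim25 the lowest C57BL/6J array, replicate 2, stands apart from the others.

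In the recombinant strains bred from these parents, fewer strains lay nearer to the low parent than to C57BL/6J for every member called lower in DBA/2J or A/J. These members were chosen by the difference between the parents on the same arrays, which can by itself shift the balance. The balance was not tested, and it was closest for Ifih1 in the BXD set, with 14 strains nearer to DBA/2J and 19 nearer to C57BL/6J. Of 33 BXD strains with at least 2 arrays, 11 had a Usp18 mean nearer to DBA/2J and 22 nearer to C57BL/6J, and the means ran from 5.24 in BXD75/RwwJ to 7.22 in BXD1/TyJ (median 6.30). For Eif2ak2, 4 of 33 BXD strains lay nearer to DBA/2J, and for Ifi27l2a 7 of 33. Among 19 AXB/BXA strains, 5 lay nearer to A/J for Usp18 and 2 for Ifi27l2a. Usp18 ran from 3.94 to 7.82 in these strains, so that AXB8/PgnJ lay below both parents (5.53 in A/J and 7.10 in C57BL/6J). No BXD strain had a Usp18 mean below that of DBA/2J (5.03). In the 4 BXH strains, Trim25 lay nearer to C3H/HeJ in 2 and Oasl1 in 1.

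Each strain was then compared with the mean of the other 94. Over 32 members and 95 strains, 163 of 3040 differences passed (88 higher and 75 lower), which is 5.36%, beside 4.13% over all probe sets and strains. The count was 323 (188 higher and 135 lower) with array weights and 253 (107 higher and 146 lower) with the probe set of the largest variance for each gene, so that the balance of higher and lower differences also turned in the latter. No member was called in 49 strains, 1 to 3 members in 34 and more than 3 in 12. Usp18 was called in 13 strains (6 higher, 7 lower), as was Trim25 (6 and 7), and Ifi27l2a was called in 11 (4 and 7). Oas3 was called in none. Irf7 was called higher in AKR/J, C3H/HeJ and CXB7/ByJ and lower in no strain.

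**Figure D3:**
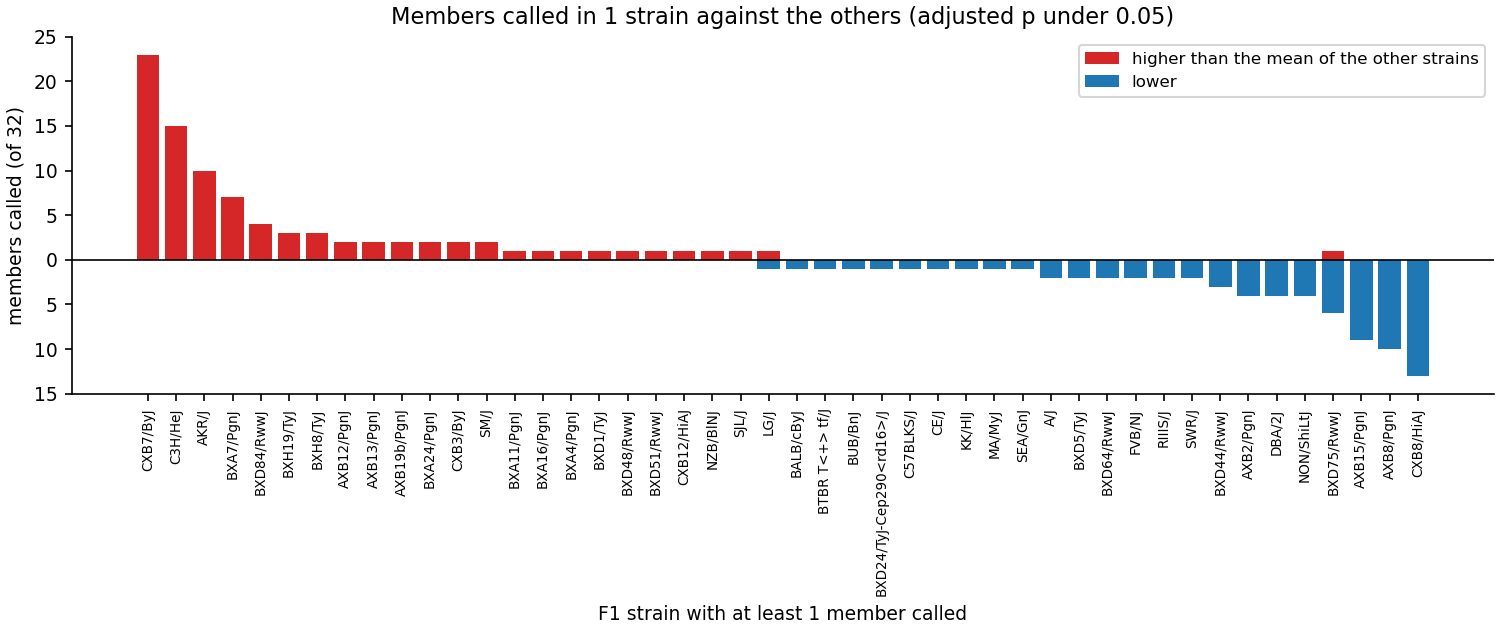
Number of the 32 members (vertical axis) called higher (upward bars) or lower (downward bars) in each F1 strain against the mean of the others, by limma with adjusted p below 0.05 over all probe sets and strains. Strains without a call are left out. CXB7/ByJ at the left had 23 members higher and CXB8/HiAJ at the right 13 lower.

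CXB7/ByJ, a recombinant of BALB/c and C57BL/6 parents, had the most members higher (23 of 32, beside 1.95% of probe sets higher). Usp18 was at 9.15, 8.16, 8.34 and 7.49 on its 4 arrays, 1.82 above the other strains (SE 0.346, limma adjusted p = 7.1e-05). Zbp1, a sensor of left-handed nucleic acids that triggers cell death, was at 7.03, 5.64, 6.53 and 3.73 (difference 1.78, limma adjusted p = 1.4e-05). Mx1 was at 6.59, 4.29, 3.37 and 2.68 (difference 1.5, limma adjusted p = 4.1e-11). Irf7 was at 7.74, 6.19, 6.49 and 4.87 (difference 1.48, limma adjusted p = 8.7e-05). For all 4 genes the first array was the highest and the fourth the lowest. The limma p-values rest on a spread pooled over all strains (SD among arrays of a strain 0.372 for Mx1 and 0.629 for Zbp1). The 4 CXB7/ByJ arrays lay further apart than that, which these p-values do not reflect. The fourth array was close to the median strain for Mx1 (2.69). Without the first array 6 members were called. T cell markers moved in the same order: all 5 were called higher in CXB7/ByJ (median difference 1.11), and the mean of the list was 6.38, 4.21, 4.32 and 2.88 on these arrays against 3.16 on the median array, while the members' mean was 7.37, 6.30, 6.36 and 5.74. Their part in the result was not tested. All 8 MHC class I and peptide loading genes were higher as well, among them H2-T23 (1.09), Nlrc5, the activator of MHC class I genes (1.14), and Psmb8, a subunit of the immunoproteasome (1.01). Of 9 interferon-inducible GTPases, 4 were higher (Tgtp1 1.14, Igtp 1.03, Irgm2 1.01 and Irgm1 0.88). No macrophage or B cell marker was called (0 of 12 and 0 of 5), but the mean of the B cell list was 5.81, 4.61, 5.36 and 3.69 on the 4 arrays against 4.32 on the median array, in the same order as the members. Of the smooth muscle markers 3 of 5 were lower (median difference of the list -1.27), and of the fibroblast markers 2 of 6 (Col1a1 -0.82 and Col3a1 -0.64). The part of these markers was not tested either.

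C3H/HeJ had 15 members higher (beside 4.33% of probe sets) and 31 of 32 differences positive. Ifit1 ran from 6.11 to 7.45 over 8 arrays and was 1.13 above the other strains (SE 0.253, limma adjusted p = 0.0013). Usp18 ran from 6.35 to 8.40 (difference 0.97, limma adjusted p = 0.0068), Irf7 from 4.93 to 6.51 (0.89, limma adjusted p = 0.0016) and Oas1g from 6.24 to 7.49 (0.84, limma adjusted p = 0.0027). Array 1 was the lowest for these 4 genes, and the members' mean was at or above 5.85 on the other 7. Leaving out 1 array at a time gave 11 to 17 members. Of the other marker lists, 1 of 7 endothelial markers was higher (Esam 0.34), with all 7 differences positive (median 0.34), 1 of 6 fibroblast markers was higher (Col1a1 0.52) and 1 of 12 macrophage markers was lower (Cd163 -0.68). All 5 smooth muscle differences were positive (median 0.59) with none called, and the part of these markers in the result was not tested. In this strain no T cell, B cell or GTPase gene was called, and H2-K1 (-0.46) and H2-D1 (-0.55) of the MHC class I genes were lower.

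AKR/J had 10 members higher, beside 10.1% of probe sets, led by Ifit1 (7.66, 6.25, 6.03 and 7.01; difference 1.12, limma adjusted p = 0.045). Irf7 was at 7.09, 5.47, 4.74 and 6.39 (difference 1.07, limma adjusted p = 0.010), Oas2 differed by 0.88 (limma adjusted p = 0.0052) and Oas1g by 0.88 (limma adjusted p = 0.046). Replicates 1 and 4 were the high ones for Ifit1, Irf7, Oas2 and Oas1g. Without replicate 1 no member was called, with 7 of 32 higher at an unadjusted limma p below 0.05, and without replicate 4 the count was 4. T cell markers were again high on the same arrays, at 6.42, 3.09, 3.11 and 4.68, and so were B cell markers, at 7.07, 4.07, 3.70 and 5.54; 4 of 5 T cell and 2 of 5 B cell markers were called higher. Endothelial markers (3 of 7 higher, all 7 differences positive, median 0.52) and fibroblast markers (3 of 6 higher, median 0.41) were higher in AKR/J too, led by Col1a1 (1.25), and 1 of 12 macrophage markers was lower. The part of these marker lists in the result was not tested. Pathway genes outside the list were higher in AKR/J too. They were 8 of 12 signalling and transcription factor genes, a list that also holds inhibitors, among them Irf8 (1.29) and Socs3 (0.74). Of 11 sensor and adaptor genes 4 were higher, among them Ikbke (1.02) and Sting1, the adaptor of cytosolic DNA sensing (0.80).

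**Figure D4:**
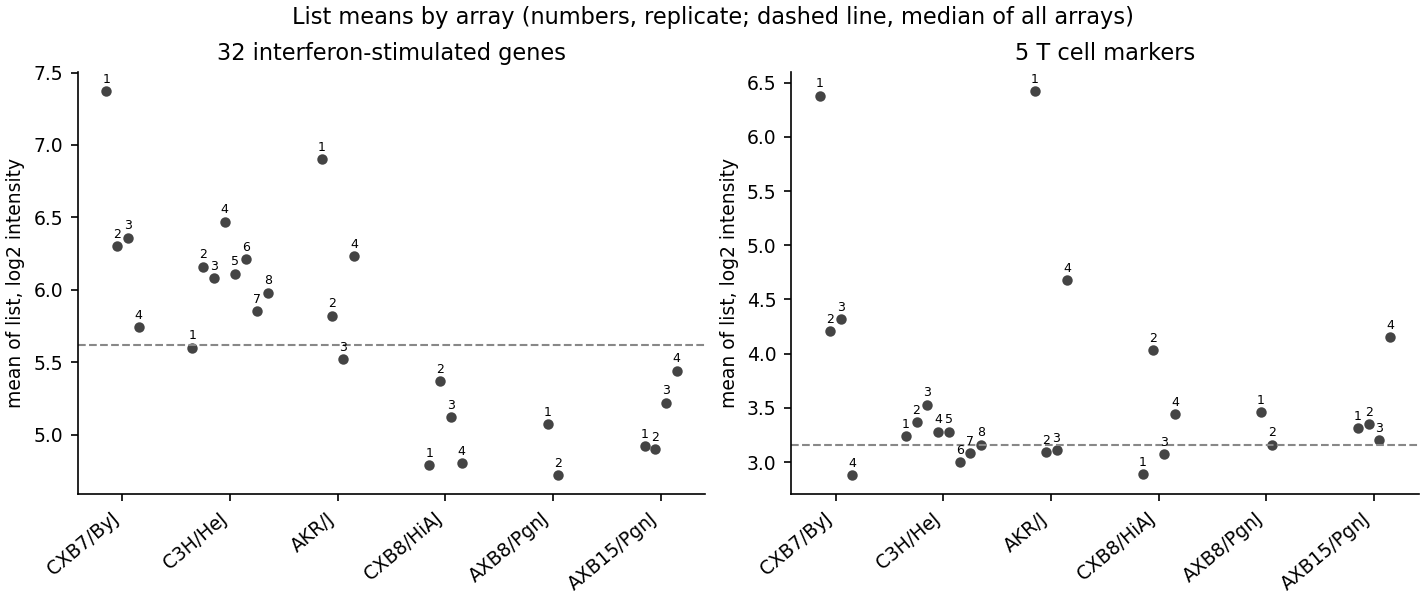
Mean log2 intensity of the 32 measured members (left, vertical axis) and of 5 T cell markers (right) on each array of the 3 strains with the most members higher and the 3 with the most members lower. In CXB7/ByJ and AKR/J the array with the highest member mean (7.37 and 6.90) also had the highest T cell mean (6.38 and 6.42), while the C3H/HeJ arrays lay between 3.0 and 3.53 for the T cell markers.

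CXB8/HiAJ, from the same parents as CXB7/ByJ, had 13 members lower, beside 5.07% of probe sets, and all 32 differences were negative. Usp18 was at 4.30, 5.17, 4.86 and 4.25, which is -1.85 from the other strains (SE 0.346, limma adjusted p = 5e-05). Oas2 was at 3.12, 3.89, 3.51 and 3.70 (difference -1.25, limma adjusted p = 1.3e-05), Trim30a, a ubiquitin ligase family member, differed by -1.07 (limma adjusted p = 0.00055) and Oas1g by -1.05 (limma adjusted p = 0.0099). Replicate 2 was the highest for Usp18, Oas2, Trim30a and Oas1g. The count was 6 without replicate 1 and 7 without replicate 4. Among the pathway genes outside the list, Tlr3, the endosomal sensor of double-stranded RNA, was lower (-0.64), and Ifngr1, a chain of the type II interferon receptor, was higher (0.94). Ifngr1 was also called higher in CXB7/ByJ (0.47), where members were higher, and in AXB15/PgnJ (0.40), where members were lower. Endothelial markers moved with the strain, 4 of 7 being lower (median difference -0.63). Of 12 macrophage markers 1 was higher (Cd163 0.80), and of 4 adipocyte markers 1 was higher (Lep 1.56) and 1 lower (Ucp1 -0.39). Of 5 plasmacytoid dendritic cell markers 1 was lower (Tcf4 -0.44), and of 9 GTPases 1 was lower (Gbp7 -0.84). The part of these genes in the result was not tested.

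AXB8/PgnJ, with 2 arrays, had 10 members lower, beside 0.627% of probe sets. Usp18 was at 4.24 and 3.64, -2.57 from the other strains (SE 0.488, limma adjusted p = 7.5e-05), and Rtp4, an interferon-induced member of the receptor transporter family, was at 6.86 and 6.26 (-1.60, limma adjusted p = 0.0048). Ifit1 was at 4.48 and 3.60 (-1.60, limma adjusted p = 0.041) and Oas1g at 4.62 and 4.87 (-1.37, limma adjusted p = 0.021). Without replicate 1 the count was 5 and without replicate 2 it was 2, the lone array being assumed to vary as those of other strains. AXB15/PgnJ had 9 members lower, beside 2.75% of probe sets: Ifi27l2a was at 10.11, 10.70, 10.18 and 11.12 (-1.19, limma adjusted p = 1.1e-09), Usp18 at 3.88, 5.17, 4.01 and 6.77 (-1.54, limma adjusted p = 0.0015), Ifit3 differed by -1.14 (limma adjusted p = 0.015) and Oasl2 by -0.99 (limma adjusted p = 0.0041). The fourth array was the highest for Ifi27l2a, Usp18 and Ifit3. The count was 2 without replicate 1, 3 without replicate 2 and 5 after quantile normalization. H2-K1 was lower in both strains, by -0.99 in AXB8/PgnJ and -1.12 in AXB15/PgnJ. T cell and macrophage markers were not called in AXB8/PgnJ; 1 of 12 macrophage markers was lower in AXB15/PgnJ. Fibroblast markers moved with AXB15/PgnJ as well, 3 of 6 being lower (Col1a1 -0.95, Lum -0.87 and Col3a1 -0.71; median of the list -0.57). All 5 smooth muscle differences were negative there, with a median of -1.03 and none called, and 1 of 5 B cell markers was higher. The part of these markers in the result was not tested.

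Single mice also stood apart from their strain. The mean of the 32 members ran over strains from 4.90 in AXB8/PgnJ over 5.64 to 6.44 in CXB7/ByJ, with an SD of 0.260 among strain means and 0.326 among arrays of a strain. On 3 arrays it lay more than 1 log2 unit above the strain mean: SEA/GnJ replicate 2 (7.24, 1.41 above), BXD43/RwwJ replicate 3 (6.76, 1.08 above) and BXD9/TyJ replicate 1 (6.72, 1.07 above). On each of these arrays all 32 members were above their strain mean. No array lay more than 1 unit below its strain, the lowest being an SEA/GnJ array (-0.82). The marker lists differed between these arrays. On BXD43/RwwJ replicate 3 the T cell list was at 5.61, the B cell list at 5.95 and the plasmacytoid dendritic cell list at 4.70, above the median array (3.16, 4.32 and 4.16). On SEA/GnJ replicate 2 these lists were at 3.02, 3.94 and 3.99, and on BXD9/TyJ replicate 1 at 2.94, 3.74 and 4.2. The macrophage list was at 6.10 on the BXD43/RwwJ array, 6.03 on the SEA/GnJ array and 6.47 on the BXD9/TyJ array, against 6.16 on the median array. The part of the lymphocyte markers in the BXD43/RwwJ value was not tested.

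The members were next set against Irf7. Across 101 strain means, 29 of the other 31 members passed (biweight midcorrelation, permutation p adjusted over 17096 genes), all positive, beside 2.99% of genes positive and 0.181% negative. The median was 0.599, with a median Pearson's r of 0.651 and Spearman's rho of 0.609. The strains are related through the shared C57BL/6J parent and, in each recombinant set, through the second parent, so the permutation treats as independent what is partly not. Oas1g was closest to Irf7 (bicor 0.890, r = 0.897, rho = 0.874, permutation p = 1e-05 for each, the smallest that 100000 resamples can give; r = 0.882 without the 2 strains farthest from the median of Irf7). Rtp4 followed (bicor 0.817, r = 0.818, rho = 0.816, permutation p = 1e-05 each; r = 0.790 without those 2 strains), then Oas2 (bicor 0.805, r = 0.8, rho = 0.786, permutation p = 1e-05 each; r = 0.784 without them). These 3 relations also appeared within families: r for Oas1g was 0.828 in the BXD, 0.927 in the AXB/BXA, 0.932 in the CXB and 0.880 in the classical strains, and for Oas2 it was 0.551, 0.872, 0.826 and 0.847.

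At the other end stood Irf1, a transcription factor that type II interferon induces as well (bicor 0.160, permutation p = 0.11; r = 0.232, permutation p = 0.020; rho = 0.130, permutation p = 0.19; r = 0.164 without the 2 farthest strains), and Oas3 (bicor 0.312, permutation p = 0.0016, adjusted p = 0.051; r = 0.318, permutation p = 0.0013; rho = 0.287, permutation p = 0.0036; r = 0.381 without them). Neither passed. Ifi27l2a passed with the lowest value of those that did (bicor 0.398, permutation p = 4e-05; r = 0.402, permutation p = 2e-05; rho = 0.403, permutation p = 6e-05; r = 0.365 without them), and its r was 0.699 in the AXB/BXA but 0.125 in the classical strains. Xaf1 had r = -0.0974 in the BXD strains and 0.553 in the AXB/BXA strains. Its other probe set split the BXD strains, with 17 in the upper range, and had no AXB/BXA strain there. The part of that split in these r values was not tested. Among the 31 classical strains alone 12 members passed.

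Within strains, where the mean of the strain was taken from each of 360 arrays, all 31 members correlated with Irf7 (permutation p = 1e-05 and adjusted p = 0.0004 for each r), beside 6.82% of genes positive and 1.44% negative. The median r was 0.675 and the median rho 0.609. Ifit3 was highest (r = 0.846, rho = 0.804, permutation p = 1e-05 each; r = 0.831 without the 2 farthest arrays), before Oas1g (r = 0.841) and Rtp4 (r = 0.836). Oas3 (r = 0.387, rho = 0.292), Ifi27l2a (r = 0.392, rho = 0.348) and Eif2ak2 (r = 0.450, rho = 0.395) were lowest, and the largest permutation p of any rho was 2e-05. Leaving out the 2 arrays farthest from the median of Irf7 left r at or above 0.356 for every member. For 19 of 31 members r was higher within than across strains, among them Irf1 (0.496 against 0.232) and Ifi35 (0.726 against 0.511); the difference was not tested.

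**Figure D5:**
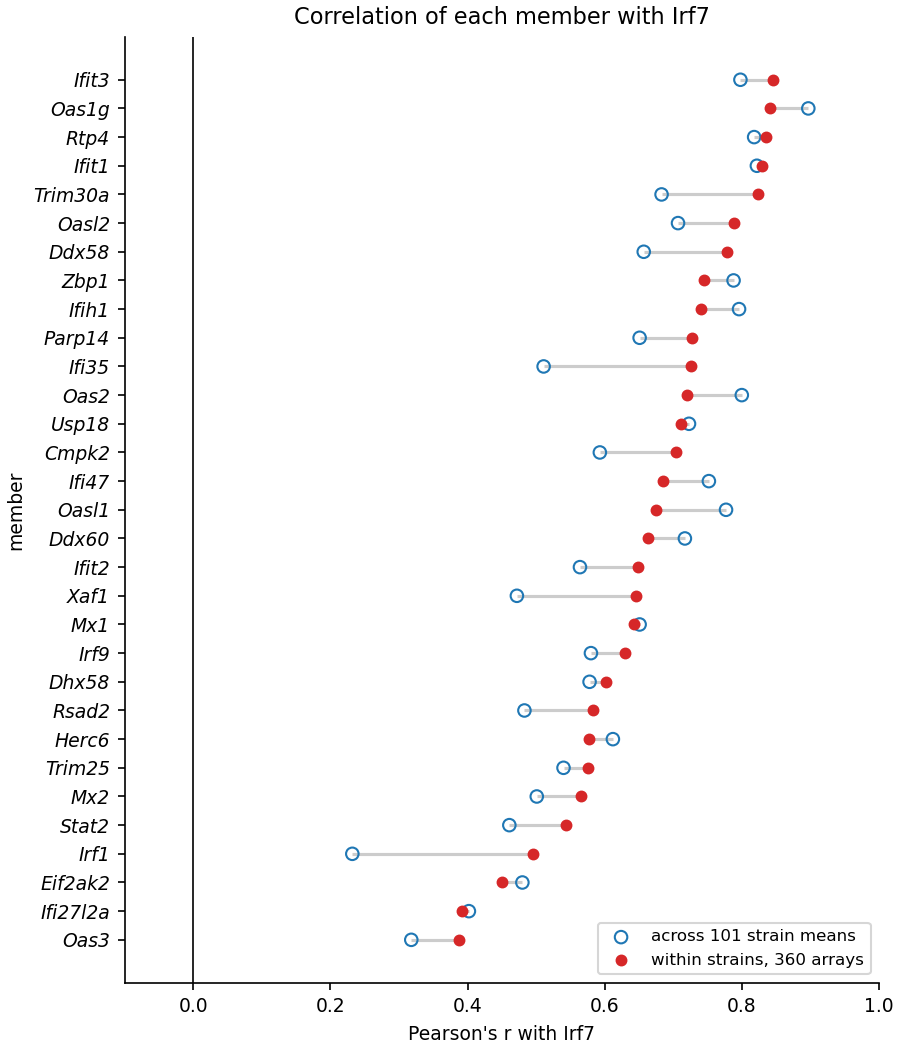
Pearson's r with Irf7 (horizontal axis) of each of the other 31 measured members (vertical axis), across 101 strain means (open circles) and within strains over 360 arrays (filled circles), joined by a line. All points lie above 0; Ifit3, Oas1g and Rtp4 are at the top and Oas3 and Ifi27l2a at the bottom of the order within strains.

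Pair by pair, the members moved together at both levels. Over the 496 pairs the median r was 0.510 across strains (490 positive) and 0.555 within strains (all 496 positive), against 0.009 and 0.005 over all pairs of the 17097 genes. Other lists moved together to a like degree. Across and within strains the median was 0.615 and 0.606 for macrophage markers and 0.716 and 0.768 for the GTPases. For the MHC class I and peptide loading genes it was 0.49 and 0.741. Ifit1 and Ifit3 were the closest pair within strains (r = 0.921) and Oas1g and Irf7 across strains (r = 0.897). Irf1 and Dhx58 had the lowest r across strains (-0.121), and Rsad2 (viperin, which blocks the budding of viruses) and Ifi27l2a the lowest within strains (0.0852).

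The genes outside the list with the highest median r to the members within strains (360 arrays) were Phf11a (0.696), Gm9706 (0.672), Rnf213 (0.669), Gbp3 (0.647), Trim30d (0.640), Parp12 (0.637), Trim34a (0.633), Ly6e (0.622), Gbp10 (0.602) and Zc3hav1 (0.602), against a median of -0.0089 over 17065 other genes. Gm9706 is a pseudogene in RefSeq, Gbp3 and Gbp10 encode guanylate-binding GTPases and Zc3hav1 an antiviral RNA-binding protein. Across strains the same median was 0.709 for Phf11a and between 0.442 (Trim34a) and 0.694 (Parp12) for the other 9.

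Pathway genes outside the list were followed as group means. The mean of 9 interferon-inducible GTPases correlated with the members' mean at r = 0.818 (rho = 0.839) across strains and 0.787 (rho = 0.803) within them, and that of 8 MHC class I and peptide loading genes at 0.721 (rho = 0.663) and 0.767 (rho = 0.745). For 11 sensors and adaptors r was 0.574 and 0.597, and for 12 signalling genes and transcription factors 0.501 and 0.562. The 11 ligands and receptors, among them Ifnb1, Ifng and the receptor chains, stood at -0.059 across and 0.0944 within strains. Of these, 8 of 11 passed the F test among strains, a share near the 80.6% of all genes, and all genes of the other pathway lists passed it. Macrophage markers gave 0.396 and 0.299, T cell markers 0.336 and 0.370, B cell markers 0.290 and 0.309 and endothelial markers 0.172 and 0.295. Fibroblast markers gave 0.155 and 0.118, plasmacytoid dendritic cell markers 0.0376 and 0.0759 and adipocyte markers -0.267 and -0.0839. The remaining cell type lists lay between -0.0935 and 0.0443 across strains and between -0.133 and 0.111 within them. These correlations are descriptions over 101 strains and 360 arrays, with members and lists read from the same normalized arrays.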

How the data were processed

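Aortas (arch to mid-abdomen, cleaned of adventitial fat) were hybridised to Affymetrix arrays, named HT_MG-430A in the labels and HT-MG_430 PM in the methods, 1 array per mouse. The deposited values are log2 intensities per probe set, made by the authors with GCOS and RMA, of which no version is given in the sources used here. RMA adjusts arrays that are run together to a common distribution, so differences are relative to the other genes of an array. The medians of the deposited arrays still differed (3.17 to 3.40) and shifted along the order of deposition. Whether all arrays were run together was not examined. The sources used here do not name scan batches or litters. The number of arrays limits the precision.

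Groups were the strains of the labels. Replicate numbers follow the order of deposition and pair nothing. A probe set was named from the platform annotation: of 45141 probe sets, 28898 had 1 symbol, 551 several and 15692 none. Of several probe sets of a gene (10 of 32 members) the one with the highest mean was used. Sequence differences between strains under the probes, which can change a signal, were not examined. The members and lists were chosen with earlier results of these data known.

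limma (3.58.1, R 4.3.3) was fitted to all probe sets over the 95 strains with at least 2 arrays, with 1 coefficient per strain. The spread of a probe set was pooled over these strains, so a p-value does not reflect how far apart the arrays of 1 strain lay. P-values of the F test and of each progenitor comparison were adjusted (Benjamini-Hochberg) across the whole array, and comparisons of 1 strain with the mean of the others over all probe sets and strains together, at a threshold of 0.05. Single members were also compared by two-sided exact permutation tests over arrays. Correlations with Irf7 used biweight midcorrelation, Pearson's r and Spearman's rho with 100000 two-sided permutations, adjusted over all 17096 other genes and not, as first designed, over the members. Python 3.11.15 with numpy 2.4.6, scipy 1.17.1, pandas 2.3.3 and matplotlib 3.10.9 was used, and the fits were checked on simulated data.

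Named with values were the 6 members whose variance lay most among strains, those called against C57BL/6J, the 4 largest differences in the 3 strains with the most members higher and the 3 with the most lower, the 3 highest and 3 lowest correlations with Irf7, and the 10 nearest other genes. The rule allowed 4 members per progenitor comparison; Ifih1 in A/J and Ifi27l2a in DBA/2J are the fifth and were added after their values were seen, as were the other members described by role. Promoters of Ddx58 and Ifih1 were passed over because the core lies after the start. Alternatives were quantile normalization, the probe set with the largest variance, a filter on dim probe sets, an intensity trend, array weights, strains with at least 3 arrays, classical or recombinant strains alone, strain medians, family means removed, Pearson's or Spearman's coefficient in place of the biweight one, adjustment within a strain, arrays with hepatocyte markers left out, and each replicate of the compared strains left out. Leaving out the 2 arrays nearest another strain was chosen after seeing the data.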

Additional observations from a re-analysis of the deposited data

Results flagged for a closer look

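Within groups of 4 to 10 arrays, the lowest or highest array was set against the others for the named members, and 2 of 44 groups held an array whose gap to its neighbour was large for the range of the group. Chance gives about 1 in 20. Trim25, the ubiquitin ligase that activates RIG-I, was at 6.877 in C57BL/6J replicate 2 and between 7.641 and 7.995 on the other arrays of that group (gap over range 0.683, critical value 0.625 for 6 arrays). Xaf1 was at 5.822 on the same array and between 6.799 and 7.284 on the others (gap over range 0.668). Both values come from 1 mouse, in which 1 of 32 members lay above the median strain, and that array is part of all 4 progenitor comparisons.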

How the results depend on the processing

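Apart from replicates left out, 128 of 140 repeated counts and medians stayed within 1.5 times the value reported. Calls in A/J against C57BL/6J went from 5 to 8 among the brighter probe sets (mean over the median) and to 12 with array weights, those in BALB/cJ from 0 to 2 and 1, and those in C3H/HeJ from 2 to 5 and 4. The total over single strains went from 163 to 323 with array weights and to 253 with the probe set of largest variance. AKR/J had 16 members higher with adjustment within each strain, AXB15/PgnJ 5 lower after quantile normalization, and 12 members followed Irf7 across the classical strains alone. The response element core was held by 8 members on the sense strand only. Xaf1 in DBA/2J reversed to 4.70 with its other probe set. The cause was not tested.

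Leaving out 1 array at a time gave 0 to 9 calls in A/J, 0 to 1 in BALB/cJ, 0 to 5 in C3H/HeJ and 2 to 5 in DBA/2J against C57BL/6J. Against the other strains it gave 6 to 23 in CXB7/ByJ, 11 to 17 in C3H/HeJ, 0 to 14 in AKR/J, 6 to 14 in CXB8/HiAJ, 2 to 5 in AXB8/PgnJ and 2 to 8 in AXB15/PgnJ. Among strains, 30 to 31 members passed under the leave-outs that were run. Of 415 values of named genes under the other alternatives, 13 lost their call, 4 gained one and 1 reversed; of 232 with a replicate left out, 65 lost it. No paired analysis was possible because the replicate numbers only name arrays. Oas3, Mx1, Mx2 and Herc6 lay below the median probe set, and signal over background was not analysed here.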

Other observations

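Among the interferon ligands and receptors, Ifngr1, a chain of the type II interferon receptor, had 43.2% of its variance among strains (limma F test adjusted p = 2.2e-17) and Il10rb, a chain shared by the type III interferon and IL-10 receptors, 27.1% (limma adjusted p = 6.6e-08). Of the interferon transcripts themselves, Ifna4 (12.6%, limma adjusted p = 0.0069) and Ifna2 (10.2%, limma adjusted p = 0.023) passed the test. So did 80.6% of all genes, and both shares lay below the median over all genes (20.8%). The transcripts of Ifng (1.33%), Ifna1 (3.26%) and Ifnb1 (3.53%) did not pass that test.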
